A study of Mus musculus with 2 samples.

Results

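The genes of the Wnt pathway described here are 49 genes chosen by symbol from the 55536 gene rows of each library: every Wnt ligand, Frizzled receptor, Sfrp and Dkk inhibitor and Dishevelled gene with a numbered symbol, together with Lrp5, Lrp6, Ctnnb1, Apc, Axin1, Axin2, Gsk3b, Tcf7l2 and Lef1, each with at least 1 protein-coding transcript. The rule used no measured value. Total RNA was sequenced from the left cerebral cortex of 2 female mice aged 10 days, F1 hybrids of the strain named B6CASTF1/J, each untreated as far as the labels say. The animals form 1 group, here called replicate 1 and replicate 2, and no second tissue, age or genotype is compared. The labels name separate females under 1 shared donor identifier, and no source used here says whether they were littermates. Tissue pieces were sequenced whole, so fewer cells of a type and less RNA per cell cannot be told apart in any value below.

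Wnt proteins are secreted lipid-modified signals that bind Frizzled receptors and, for the beta-catenin branch, the co-receptors Lrp5 and Lrp6. In the absence of a signal, a complex of Apc, Axin and Gsk3b marks beta-catenin (Ctnnb1) for destruction; receptor engagement recruits Dishevelled, beta-catenin accumulates, and it joins Tcf and Lef factors on DNA. Sfrp proteins bind Wnt ligands outside the cell, and Dkk1, Dkk2 and Dkk4 bind the Lrp co-receptors. In the developing brain the pathway is known for roles in cortical patterning, axon and dendrite growth, and vessel formation.

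The libraries held 29867112 and 31031340 estimated reads in genes. Levels below are TPM, a transcript abundance scaled per length and to the same total in each library, and a gene was called detected where both libraries reached 1 TPM. Levels and reads are those of the authors' alignment-based tables unless the alignment-free tables are named. Neuronal markers summed to 1874 and 1853 TPM and astrocyte markers to 438 and 420 TPM, so the defining markers of brain tissue were present. Summed markers of microglia, endothelium, pericytes and oligodendrocyte precursors also lay close in both libraries. Single precursor markers differed more, with log2 ratios from -0.12 for Pdgfra to 0.40 for Gpr17. Other lists moved: on scaled counts 6 of 6 myelinating oligodendrocyte markers were higher in replicate 2 (summed 160 against 333 TPM), while 6 of 6 thalamic markers (34.8 against 26.2 TPM) and 5 of 5 striatal markers (58.6 against 43.7 TPM) were lower. The olfactory bulb markers summed to 10.5 and 6.40 TPM and the hippocampal ones to 5.51 and 6.70 TPM. Meningeal fibroblast markers summed to 63.6 and 74.7 TPM, with log2 ratios of 0.52 for Col1a1 and 0.38 for Col1a2 but -0.14 for Dcn and -0.01 for Lum. The choroid plexus markers summed to 5.68 and 11.9 TPM. Most of this was Ttr, at 3.98 and 9.70 TPM from 81 and 216 reads, while Folr1 had 2 and 4 reads.

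Of the 49 genes, 30 (61.2%) were detected, beside 59.3% of 21901 genes with a protein-coding transcript. Wnt2, Wnt10a and Dkk2 passed 1 TPM in 1 library only, and 16 were below it in both. The median level of detected pathway genes was 6.69 TPM, below the 16.6 TPM of detected coding genes. The summed level of all 49 was 1190.3 and 1102.7 TPM (mean 1147 ± 61.9, SD, n = 2). Intracellular components held most of it: the destruction complex with beta-catenin took 73.6% and 71.3%, while the 19 ligands summed to 59.7 and 56.0 TPM.

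**Figure D1:**
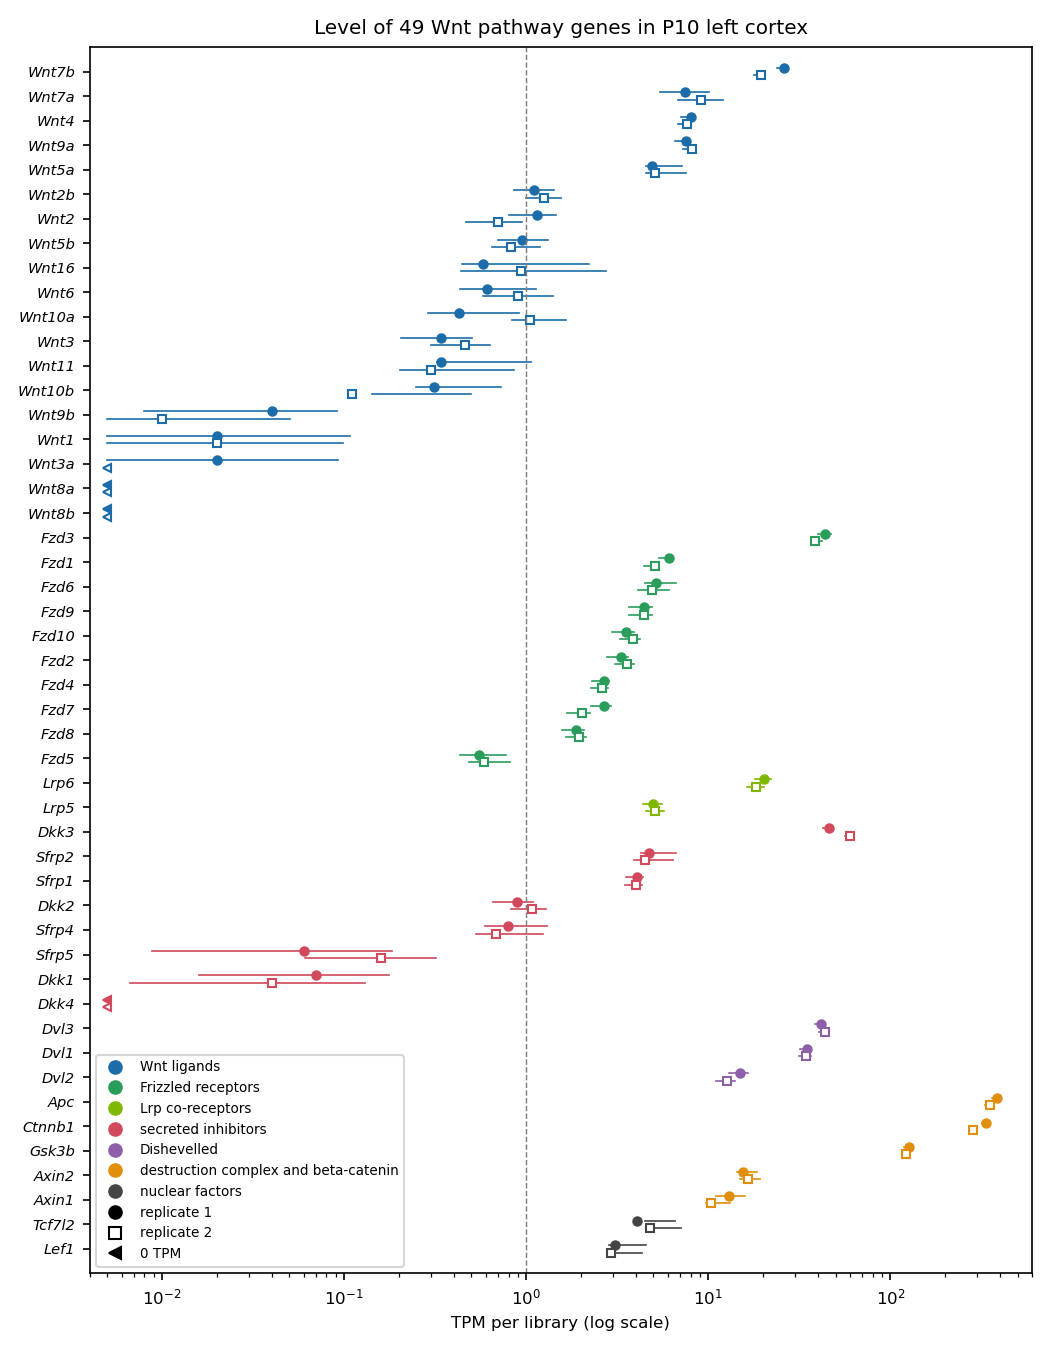
Level of each of the 49 Wnt pathway genes in TPM on a log axis, grouped by role, with filled circles for replicate 1, open squares for replicate 2, triangles at the left edge for 0 TPM and the deposited credible interval as a bar; the dashed line marks 1 TPM. Apc and Ctnnb1 lie above 285 TPM in both libraries and 16 genes lie below 1 TPM in both.

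Among the 19 ligands 6 were detected, and Wnt7b was the highest. Wnt7b is a ligand known in brain vessel formation and dendrite growth (ENSMUSG00000022382.15, mm10 chromosome 15, 85535437 to 85582473, minus strand). It was at 25.9 TPM in replicate 1 and 19.4 TPM in replicate 2 (22.7 ± 4.60, SD, n = 2), which was 43.5% and 34.7% of the summed ligand level. Replicate 2 had the lower value, a log2 ratio of -0.27 on scaled counts with a 95% counting interval of -0.39 to -0.16, which covers counting error only. Wnt7b stood 2.75 times above the next ligand, and the credible intervals of the pair did not overlap in either library.

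The Wnt7b transcripts shown here begin their coding sequence at different starts. Wnt7b-203 and Wnt7b-205, not shown, have the same first coding exon as each other. The first-exon coding bases of Wnt7b-202 all lie within those of Wnt7b-201, where they are read in another frame. They alone do not separate that pair. Coding bases of the first coding exon are shown 5′ to 3′ on the minus strand of mm10 chromosome 15, with the start codon in capitals. They were chosen after their values were seen.
Wnt7b-202: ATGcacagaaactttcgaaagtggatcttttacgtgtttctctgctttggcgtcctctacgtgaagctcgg
Wnt7b-201: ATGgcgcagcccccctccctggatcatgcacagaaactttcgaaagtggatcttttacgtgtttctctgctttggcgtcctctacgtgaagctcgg
Wnt7b-204: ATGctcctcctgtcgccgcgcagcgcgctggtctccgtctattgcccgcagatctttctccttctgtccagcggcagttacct
The coding bases of Wnt7b-202 lie at chr15:85581380-85581450 and are the last 71 of the 96 of Wnt7b-201, at chr15:85581380-85581475. The exon of Wnt7b-204 lies apart, at chr15:85577508-85577590. Wnt7b-202, of 349 codons, held 59.4% and 45.8% of the gene's TPM, Wnt7b-201 held 18.5% and 33.1%, and Wnt7b-204 held 17.2% and 19.2%. In the alignment-free tables Wnt7b-202 held 39.6% and 38.8% and Wnt7b-201 held 29.6% and 34.1%, so Wnt7b-202 led in each library and quantification but its gap between the libraries was smaller there.

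Wnt7a, the closest relative of Wnt7b and known with it in brain vessel formation, was at 7.41 and 9.09 TPM (8.25 ± 1.19, SD, n = 2), from 235 and 268 reads. Protein-coding transcripts held only 52.1% and 43.2% of that level: a processed transcript of 293 bases, Wnt7a-203, took 47.9% and 24.1% from 12.9 and 8.71 reads, and another of 297 bases, Wnt7a-202, was at 0 in replicate 1 and took 32.6% in replicate 2 from 12.01 reads. Counting coding transcripts alone, Wnt7a was at 3.86 and 3.93 TPM. The level of Wnt7a thus depends on short transcripts that few reads support.

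Wnt4, a ligand known from kidney and gonad development, was at 8.01 and 7.66 TPM, and Wnt9a, known from joint formation, was at 7.50 and 8.12 TPM. Wnt5a, which is best known for signalling without beta-catenin, was at 4.93 and 5.10 TPM. Wnt7a, Wnt4, Wnt9a and Wnt5a could not be ordered, since neighbours among them had overlapping intervals or changed order between libraries. Wnt2b, the lowest detected ligand, was at 1.10 and 1.26 TPM and stood 4.25 times below Wnt5a, with intervals apart in both libraries.

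Just under the limit, Wnt2 was at 1.14 and 0.70 TPM, Wnt5b at 0.95 and 0.83 TPM, and Wnt10a at 0.43 and 1.05 TPM. Wnt16, Wnt6, Wnt3, Wnt11 and Wnt10b lay between 0.11 and 0.94 TPM. Wnt9b, known from kidney and palate, had 3 and 1 reads, Wnt1, known from the midbrain boundary, had 1 and 1, and Wnt3a, known from the cortical hem, had 1 and 0. Wnt8a and Wnt8b had no alignment-based read in either library, which at 3 reads allows levels up to 0.0973 and 0.0890 TPM for Wnt8a and 0.0800 and 0.0732 TPM for Wnt8b by those counts. The deposited credible intervals reach higher for Wnt8b, to 0.230 and 0.212 TPM, and to 0.0934 and 0.0871 TPM for Wnt8a. The alignment-free tables give Wnt8a 1 read in each library and Wnt8b none. For these 5 ligands the depth gives no order.

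Several ligand genes lie as close pairs in mm10, and in 1 of 4 such pairs only one neighbour was detected. Wnt3a and Wnt9a lie 16175 bases apart on chromosome 11, with mean levels of 0.01 and 7.81 TPM. In the pairs Wnt6 and Wnt10a, Wnt9b and Wnt3, and Wnt10b and Wnt1, no gene was detected in both libraries.

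Of the 10 Frizzled genes 9 were detected, and Fzd3 exceeded the rest. Fzd3, a receptor known for axon tract formation (ENSMUSG00000007989.7, mm10 chromosome 14, 65192449 to 65262463, minus strand), was at 43.9 and 38.7 TPM (41.3 ± 3.71, SD, n = 2), from 9973 and 10005 reads. It made up 59.2% and 57.1% of the summed Frizzled level and stood 7.41 times above Fzd1, with intervals apart in both libraries.

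Fzd1 was at 6.07 and 5.07 TPM, Fzd6 at 5.18 and 4.90 TPM, and Fzd9 at 4.43 and 4.41 TPM. These are receptors of the same family with a cysteine-rich Wnt-binding domain. Fzd10 was at 3.53 and 3.87 TPM, and Fzd8, the lowest detected Frizzled, was at 1.88 and 1.95 TPM. Fzd2, Fzd4 and Fzd7 lay between 2.02 and 3.60 TPM, and Fzd5 was below the limit at 0.55 and 0.59 TPM. The leading transcript of Fzd6 depended on the quantification: Fzd6-201 held 64.0% and 63.2%, whereas alignment-free Fzd6-202 led with 38.6% and 46.8%, and both encode 709 codons. From Fzd1 down to Fzd8 none of the 7 neighbouring pairs was apart by the interval rule.

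Lrp6, a co-receptor for Wnt and a target of Dkk1, was at 20.3 and 18.3 TPM (19.3 ± 1.43, SD, n = 2). Lrp5, its close homologue, was at 4.99 and 5.11 TPM, which left Lrp6 3.83 times higher with intervals apart in both libraries. Protein-coding transcripts held over 83% of the level of each.

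Among the 8 secreted inhibitors chosen by symbol 3 were detected, and Dkk3 held 81.3% and 85.2% of their summed level. Frzb, an extracellular modulator of the second list below, is not in this class and was at 8.24 and 6.74 TPM. Dkk3 is a divergent Dkk family member whose part in Wnt signalling is less settled than that of Dkk1 (ENSMUSG00000030772.6, mm10 chromosome 7, 112116017 to 112159057, minus strand). It was at 46.0 and 60.2 TPM (53.1 ± 9.99, SD, n = 2), from 2810 and 4016 reads. Its log2 ratio of replicate 2 over replicate 1 was 0.50, with a counting interval of 0.43 to 0.57, under the 1.5-fold limit. The myelin markers and the summed choroid plexus, meningeal fibroblast and hippocampal ones were also higher in replicate 2. The striatal, thalamic and summed olfactory bulb ones were lower. The part of any of these lists in the Dkk3 difference was not tested.

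Sfrp2 was at 4.74 and 4.50 TPM and Sfrp1 at 4.07 and 4.02 TPM, and these ligand-binding proteins were not apart. Dkk3 stood 11.5 times above Sfrp2 with intervals apart. Dkk2, an Lrp-binding inhibitor, was at 0.89 and 1.07 TPM, and Sfrp4 at 0.79 and 0.68 TPM. Dkk1 had 3 and 2 reads and Sfrp5 had 2 and 6. Dkk4 had no alignment-based read, which allows up to 0.132 and 0.120 TPM by those counts, but the alignment-free tables give it 3 and 6 reads, at 0.198 and 0.384 TPM.

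All 3 Dishevelled genes, which relay the signal from Frizzled to the cytoplasm, were detected and were apart from each other. Dvl3 was at 41.9 and 43.8 TPM, Dvl1 at 34.9 and 34.6 TPM, and Dvl2 at 14.9 and 12.6 TPM. Their protein-coding shares differed widely: for Dvl1 it was 49.6% in both libraries, and the retained-intron transcript Dvl1-206 held 25.3% and 27.6%. For Dvl2 it was 33.3% and 38.4%. This counts Dvl2-207, which is protein-coding, but not Dvl2-202, which is annotated for nonsense-mediated decay. Both have 5037 bases and equal values, 6.63% and 5.15% of the gene's TPM each, so the split between them was not resolved. Exons of Dvl2 share 1151 bases (18.3%) with Acadvl on the opposite strand, a gene at 23.8 TPM, and no source used here says whether counting used strand.

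**Figure D2:**
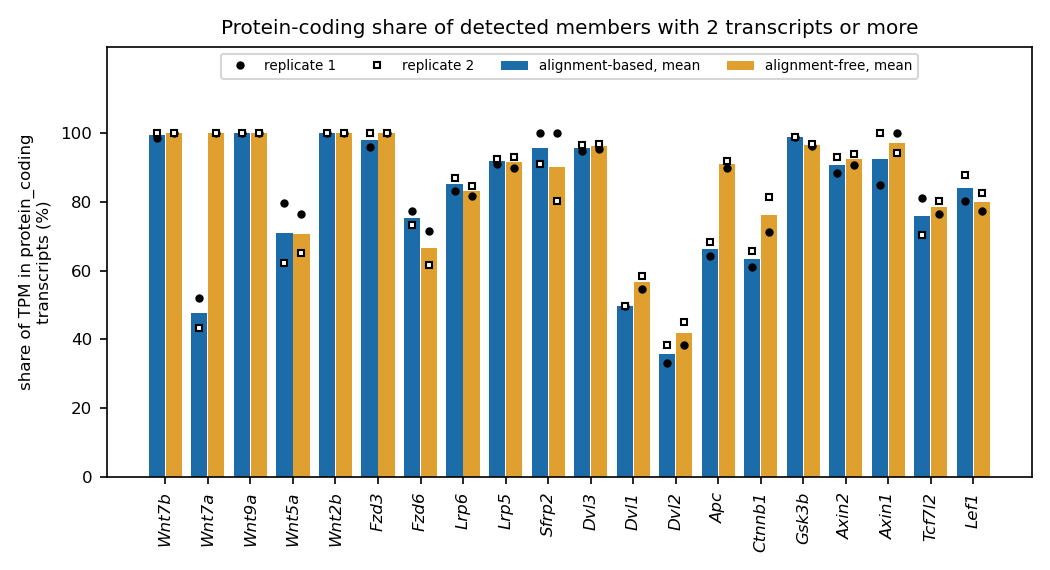
Share of TPM held by protein-coding transcripts, in percent, for the 20 detected genes with several transcripts; bars are means of 2 libraries, filled circles replicate 1 and open squares replicate 2, and colours the quantifications. Dvl2 has the lowest alignment-based values, 33.3% and 38.4%, and Wnt7a is at 100% in the alignment-free tables.

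The destruction complex and beta-catenin were the most abundant class, at 876 and 786 TPM (831 ± 63.3, SD, n = 2). Apc, the scaffold that binds beta-catenin and microtubules, was at 385 and 351 TPM (368 ± 23.9, SD, n = 2), from 53375 and 56345 reads. Ctnnb1, which also links cadherins to the cytoskeleton, was at 336 and 286 TPM (311 ± 35.4, SD, n = 2). Apc lay at the 99.0th and Ctnnb1 at the 98.6th percentile of detected coding genes.

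The level of Apc rests partly on short transcripts. Apc-204, a transcript of 608 bases annotated for nonsense-mediated decay, held 26.1% and 24.4% of the gene's TPM from 957 and 891 reads, while the alignment-free tables list it at 0. Apc stood 1.18 times above Ctnnb1 with intervals apart, but in the alignment-free tables Apc was at 382 and 384 TPM and Ctnnb1 at 479 and 414 TPM, the reverse order. The leading Apc transcript also differed: Apc-202 of 2842 codons held 46.0% and 54.1%, whereas alignment-free it held 25.3% and 29.2% and Apc-203 of 2808 codons led with 47.2% and 44.6%. For Ctnnb1, Ctnnb1-201 of 781 codons held 56.2% and 59.1%, and the retained-intron transcript Ctnnb1-215 held 28.9% and 26.7%. In the alignment-free tables Ctnnb1-201 held 55.3% and 63.5%, and Ctnnb1-215 only 19.4% and 12.2%. Exons of Ctnnb1 share 759 bases with Ulk4 on the opposite strand, at 3.53 TPM.

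Gsk3b, the kinase that phosphorylates beta-catenin (ENSMUSG00000022812.14, mm10 chromosome 16, 38089001 to 38246084), was at 126 and 122 TPM. Axin2, a feedback target of beta-catenin signalling, was at 15.6 and 16.6 TPM. Axin1, the scaffold of the complex, was at 12.9 and 10.3 TPM. Ctnnb1 was 2.50 times above Gsk3b and Gsk3b 7.73 times above Axin2, with intervals apart in each pair, whereas Axin2 and Axin1 were not apart.

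Gsk3b and Axin1 each have an internal coding exon that some transcripts hold and others splice over. Both exons keep the reading frame, at 13 and 36 codons, and are shown on the plus strand of mm10 with the exon in capitals and 15 neighbouring transcript bases on each side in lower case, chosen after their values were seen.
Gsk3b, chr16:38217113-38217151: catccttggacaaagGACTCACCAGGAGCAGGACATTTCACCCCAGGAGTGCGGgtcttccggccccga
Axin1, chr17:26192516-26192623: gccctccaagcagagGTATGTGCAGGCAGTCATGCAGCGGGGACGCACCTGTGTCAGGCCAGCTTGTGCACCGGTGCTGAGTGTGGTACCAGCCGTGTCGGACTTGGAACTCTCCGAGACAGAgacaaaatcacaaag
Transcripts with the 39-base Gsk3b exon held 26.6% and 28.1% of the informative TPM, and 30.9% and 32.8% in the alignment-free tables. The exon would hold about 91.1 and 96.6 read starts if every transcript had it. Transcripts with the 108-base Axin1 exon held 65.2% and 69.9%, and 59.7% and 61.0% alignment-free. Neither exon's share moved across 50% in any library or quantification. These transcripts also differ in length. Gsk3b-202, with the exon, has 1750 bases and took 1028 and 1150 reads. Gsk3b-201, without it, has 8303 bases and took 14054 and 14614 reads. Axin1-201, with its exon, has 3777 bases, and Axin1-202 and Axin1-203, without it, have 2833 and 2890. The shares therefore also rest on reads outside the exons. The transcripts without the Axin1 exon were assigned to Axin1-202 in replicate 1 (29.5%) and to Axin1-203 in replicate 2 (30.1%), which both encode 832 codons.

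Tcf7l2, a DNA-binding partner of beta-catenin known in the thalamus, was at 4.04 and 4.80 TPM, from 232 and 258 reads. Lef1, its relative, was at 3.09 and 2.94 TPM, from 180 and 195 reads. The pair was not apart. Both lay among the lower detected genes here. Tcf7l2 had a log2 ratio of 0.14 with a counting interval of -0.12 to 0.40. The thalamic markers, of which 2 of 6 were detected, were lower in replicate 2, and the myelinating oligodendrocyte markers were higher. The part of either in the level of Tcf7l2 was not tested.

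Alternative exons change the proteins of these factors, and the exons behind the largest isoform gaps are shown in the same layout as above.
Tcf7l2 73-base exon, chr19:55925977-55926049: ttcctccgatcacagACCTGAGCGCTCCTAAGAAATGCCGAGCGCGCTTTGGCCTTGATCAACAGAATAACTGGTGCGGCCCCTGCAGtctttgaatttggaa
Tcf7l2 75-base exon, chr19:55926682-55926756: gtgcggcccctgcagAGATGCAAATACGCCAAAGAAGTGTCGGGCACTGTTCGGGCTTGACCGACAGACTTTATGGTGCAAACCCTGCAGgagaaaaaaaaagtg
Lef1 84-base exon, chr3:131191023-131191106: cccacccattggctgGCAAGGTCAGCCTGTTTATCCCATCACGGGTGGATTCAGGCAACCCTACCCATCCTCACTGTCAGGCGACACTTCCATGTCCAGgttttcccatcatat
The Tcf7l2 exons of 73 and 75 bases are alike, with 47 of 73 bases (64.4%) identical when their 3′ ends are set together. Transcripts with the 73-base exon held 91.8% and 63.6%, and those with the 75-base exon held 30.5% in replicate 1 and were at 0 in replicate 2. The alignment-free values were 83.6% and 51.1% for the first and 29.5% and 5.68% for the second. Tcf7l2-209 led in both libraries with 39.9% and 31.0%, while Tcf7l2-213, which holds the 75-base exon, was at 24.6% in replicate 1 and at 0 in replicate 2.

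Transcripts with the 84-base Lef1 exon, of 28 codons, held 26.2% in replicate 1 and 84.1% in replicate 2. In the alignment-based tables Lef1 was the one gene of the 20 with several transcripts whose leading transcript differed between libraries, Lef1-202 of 369 codons in replicate 1 and Lef1-201 of 397 codons in replicate 2, beside 11.4% of detected coding genes with several transcripts. In the alignment-free tables this held for 2 genes, Lef1 and Dvl3. The exon would hold only 3.90 and 4.44 read starts if all transcripts had it, and the exons of Tcf7l2 between 1.54 and 6.78. Reads that start outside an exon and run into it, or that cross the junction over it, are not in these numbers. Transcripts with the Lef1 exon took 41.5 and 150 reads in all, and those without it 113 and 27.3. The isoform shares of Lef1 and Tcf7l2 thus rest on few read starts inside these exons, and whether the animals differ in them was not tested.

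**Figure D3:**
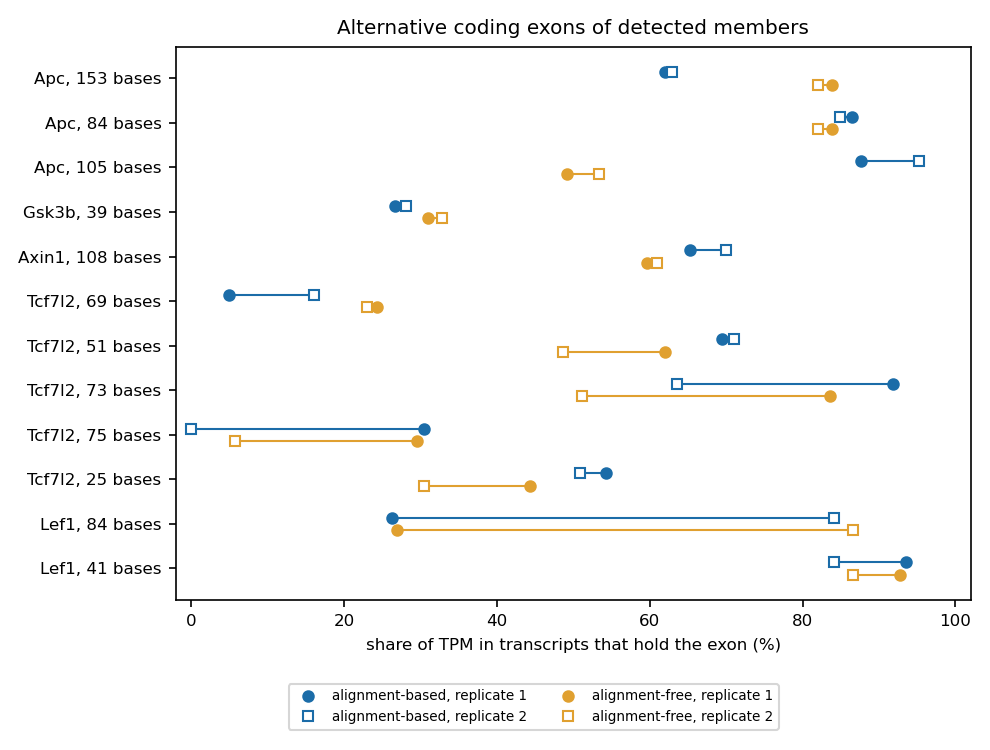
Share of informative TPM in transcripts that hold alternative coding exons, in percent, by library (filled circles replicate 1, open squares replicate 2) and quantification (colours). A 3-base exon of Apc and a 394-base exon of Lrp6 are not shown. The Gsk3b exon lies between 26.6% and 32.8%, and the Lef1 exon of 84 bases moves from 26.2% in replicate 1 to 84.1% in replicate 2.

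Between the libraries, 1 of the 38 genes with a mean of 20 or more expected counts was past 1.5-fold, beside 6.02% of 16459 genes of all types (1.69% higher and 4.33% lower in replicate 2) and 2.82% of coding genes. It was Wnt10a, a ligand known from tooth and hair development, with 19 and 51 reads and a log2 ratio of 1.39 (counting interval 0.62 to 2.25). It was also past 2-fold, beside 1.42% of all genes. In its count range of 20 to under 60, 1 of 6 pathway genes was past 1.5-fold, beside 18.4% of 1275 coding genes. Wnt2 reached a log2 ratio of -0.58, and the remaining 36 were nearer 0. The median ratio was 0.09 in pathway genes, 0.02 in coding genes and 0.01 in genes of all types. In replicate 2, 27 of the 38 (71.1%) were higher by any size, beside 56.2% of 13909 coding genes.

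**Figure D4:**
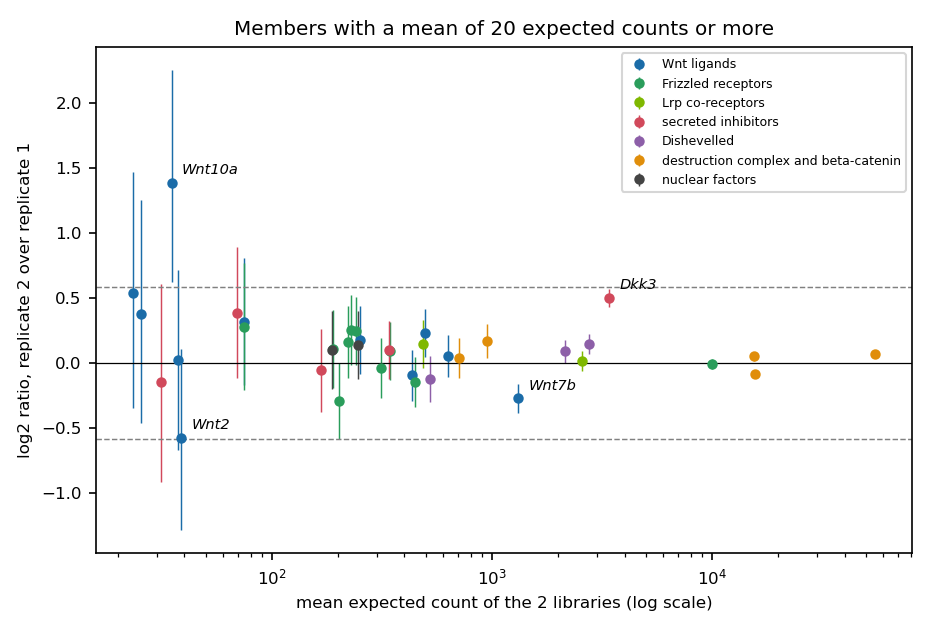
Log2 ratio of replicate 2 over replicate 1 on scaled counts for the 38 Wnt pathway genes with a mean of 20 or more expected counts, against that mean (log axis), with 95% counting intervals as bars, colours for roles and dashed lines at 1.5-fold. Wnt10a is the one gene outside the lines, at 1.39.

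The authors quantified each library a second time without alignment. None of 37 pathway genes at 1 TPM or more was past 2-fold between the quantifications in both libraries, beside 3.29% of coding genes. The nearest was Wnt7a, with log2 ratios of -0.97 and -1.17 for alignment-free over alignment-based. The median was -0.13 and -0.14 in pathway genes and -0.08 and -0.09 in all coding genes. The leading transcript differed between quantifications in both libraries for Apc and Fzd6, 2 of the 20 genes with several transcripts, beside 17.4% of detected coding genes with several. In the alignment-based tables it was protein-coding for all 30 detected genes, where it was of another type in 8.93% of all 12985 detected coding genes.

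**Figure D5:**
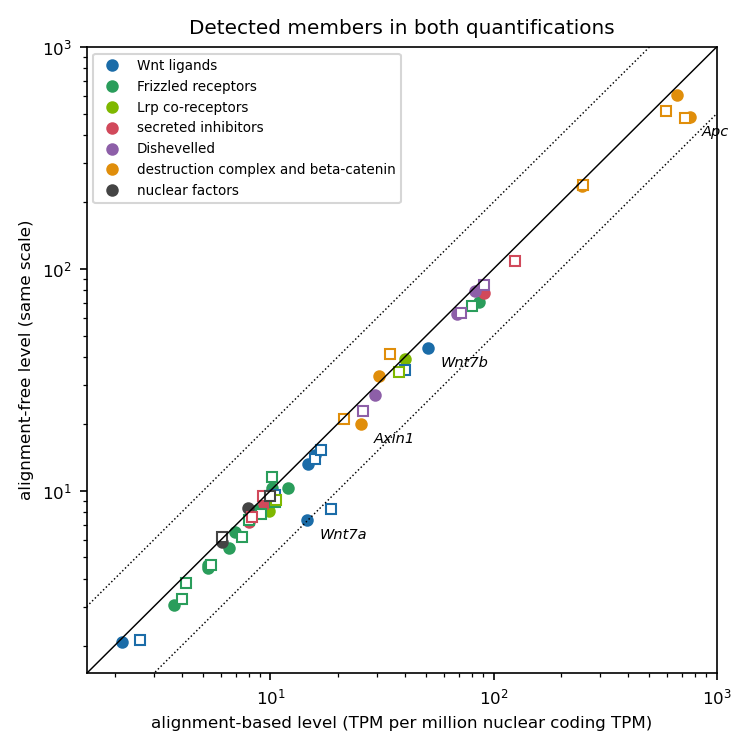
Alignment-free against alignment-based TPM of the 30 detected Wnt pathway genes, both rescaled over nuclear coding genes, on log axes with a solid line at equality and dotted lines at 2-fold; filled circles are replicate 1, open squares replicate 2 and colours the roles. Wnt7a lies lowest against the line of equality, at log2 ratios of -0.97 and -1.17.

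A second list holds 63 other genes of the pathway, and 56 of them (88.9%) were detected, beside 59.3% of coding genes. All 3 secretion genes were, with Porcn, which attaches the lipid to Wnt, at 33.5 and 32.0 TPM, Wls, the carrier of Wnt to the surface, at 15.6 and 15.4 TPM, and Notum, which removes the lipid, at 2.83 and 3.13 TPM. In the R-spondin arm 7 of 9 were, led by Znrf3, a ligase that removes Frizzled, at 12.4 and 11.2 TPM, Lgr4 at 10.5 in both and Rspo2 at 5.81 and 5.2 TPM. Among other receptors 4 of 6 were, led by Ryk at 14.4 and 13.6 TPM, Ptk7 at 9.28 and 9.86 TPM, and Adgra2 at 6.63 and 7.67 TPM. Adgra2 acts with Wnt7a and Wnt7b at brain vessels.

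Extracellular modulators were detected in 7 of 9 cases, led by Apcdd1, a membrane inhibitor, at 34.7 and 35.6 TPM, Dkkl1 at 9.23 and 6.32 TPM and Frzb at 8.24 and 6.74 TPM. All 18 cytoplasmic genes were, and by mean alignment-based level the kinases Csnk1a1 at 127 and 117 TPM and Gsk3a at 101 and 103 TPM came first, then Apc2 at 95.9 and 96.1 TPM. The kinase Csnk1e, at 97.5 and 87.2 TPM, was above Apc2 in replicate 1 and was the highest of the 18 in the alignment-free tables, at 227 and 226 TPM. Of 11 nuclear genes 10 were, led by Bcl9l at 48.4 and 45.6 TPM, Tle3 at 45.7 and 47.5 TPM and Bcl9 at 35.5 and 31.6 TPM. Tcf7 and Tcf7l1, relatives of Tcf7l2, were at 3.33 and 3.74 TPM and at 1.70 and 1.84 TPM. All 7 planar polarity genes were detected, led by Celsr2 at 83.4 and 88.4 TPM, Prickle2 at 82.8 and 78.6 TPM and Prickle1 at 31.1 and 34.8 TPM. Of the 60 genes with enough reads, Rspo1 alone was past 1.5-fold between libraries, at 1.73 and 2.48 TPM from 49 and 88 reads, beside the 2.82% of coding genes given above.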

How the data were processed

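Members, lists and tests were chosen with earlier results of these data known. Per the labels, each library took 300 ng of total RNA and carried ERCC spike-ins for stranded ribosome-reduced libraries. Expected counts and TPM per gene and transcript were made by the authors from transcriptome alignments to mm10 with annotation M21, per the deposited notes; the alignment-free tables hold estimated counts and TPM per transcript. The deposited tables also give credible-interval bounds of TPM, recorded here as a signal that is never negative; no source used here states their level. They belong to a posterior mean, so a TPM may lie outside them. Reads of an F1 hybrid were set against 1 reference genome. For the aligner and the quantifier, name and version are not stated in those sources.

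Genes were found by symbol in the transcript names. Alignment-free values were summed over transcripts, and 86 gene rows had none. Expected counts, rounded to whole numbers, were scaled with edgeR 4.0.16 (TMM), 0.5 was added, and ratios were read at a mean of 20 counts or more against a limit of 1.5-fold; DESeq2 1.42.0 size factors were an alternative. Quantifications were compared after rescaling TPM over nuclear coding genes, which held 50.8% and 48.4% of TPM, with a pseudocount of 0.1. Neighbours in a class were called apart when their order was the same and their intervals did not overlap in both libraries. Exon shares are TPM of transcripts holding an exon over these plus those splicing over it, for exons between 5% and 95%. Sequences were read from the GENCODE M21 transcripts. With 2 animals in 1 group no p-value is given, since an exact two-sided test cannot go below 0.5. The SD measures the spread of these 2 samples. The scaled ratio between libraries was tested on simulated counts with known folds in 200 genes. The other steps were not tested in this way. Named genes were all detected genes of classes with 6 or fewer, otherwise the 5 highest and the lowest, genes past a limit, genes whose leading transcript differed, genes next to 1 TPM, and the 3 highest of each role in the second list; other named genes were chosen after their values were seen.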

Additional observations from a re-analysis of the deposited data

How the results depend on the processing

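With a limit of 5 TPM, 16 pathway genes were detected in place of 30, 37 at 0.5 TPM, 37 after rescaling over nuclear coding genes, 34 in the alignment-free tables, and 31 to 32 when either replicate was left out. The count past 1.5-fold between libraries, 1 as reported, was 2 with scaling by total count (Wnt2 joined), 6 with no filter on counts, 0 at a mean of 100 counts, and 2 with alignment-free counts (Wnt10a and Wnt3). It was 1 with DESeq2 size factors. These were 1 in both libraries and the TMM factor ratio was 1.01, so this setting hardly differed from the reported one. The count past 2-fold between quantifications, 0 as reported, was 1 (Wnt7a) without replicate 1 and 0 without replicate 2. Summed class levels, each in the alignment-free tables as deposited and then in the alignment-based tables after rescaling, were Dishevelled 134.9 and 184.2 TPM, Frizzled 98.6 and 143 TPM, Lrp 35.9 and 49.1 TPM, ligands 77.1 and 116.6 TPM, destruction complex 1064 and 1674 TPM, nuclear factors 11.8 and 15.01 TPM, and inhibitors 90.6 and 128.7 TPM. Rescaling multiplies every gene of a library by 1.97 or 2.07 by its construction; for the alignment-free levels the cause was not tested. With both quantifications rescaled, all 7 classes were lower alignment-free: Dishevelled 169.6, Frizzled 124.0, Lrp 45.2, ligands 96.9, destruction complex 1338, nuclear factors 14.9 and inhibitors 113.8 TPM. Leaving out each replicate gave the other library's sum, 91.0 to 91.6 TPM for Dishevelled, 67.7 to 74.2 for Frizzled, 23.4 to 25.3 for Lrp, 56.0 to 59.7 for ligands, 786 to 876 for the destruction complex, 7.13 to 7.74 for nuclear factors and 56.7 to 70.6 for inhibitors. Counting protein-coding transcripts only, chosen after seeing the data, moved 14 of 30 detected levels by more than 1 SD. The 10 genes with 1 transcript could not move, since that transcript is protein-coding. The SD is of 2 values, so the count depends on how close these lay. Lrp5 moved, from 5.05 to 4.635 TPM, while Axin1, from 11.64 to 10.66 TPM, did not. No paired analysis was possible because there is 1 group, with no second group to share replicate numbers.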
